A study of Mus musculus with 28 samples.

Results

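The genes described here are 38 genes of S phase and DNA replication, taken from a named list by symbol and matched to the gene identifiers of the deposited files, which hold 55413 genes. Every symbol matched a single identifier, and all 38 passed the filter on low counts. Their RNA was measured by bulk sequencing of spleen T cells from male C57BL/6J mice, 8 to 12 weeks old, that had been killed after 11 days. Cells were labelled CD3+ and were enriched on magnetic beads after lysis of red cells. NT mice (n = 7) were untreated. PS mice (n = 4) received empty polymersomes, small vesicles made of PEG-b-PPS polymer, under the skin at 60 mg of polymer per kg. R mice (n = 6) received rapamycin in 0.2% CMC under the skin, RO mice (n = 6) received Rapamune by gavage, and rPS mice (n = 5) received rapamycin-loaded polymersomes under the skin with 60 mg of polymer per kg. Rapamycin was given at 1 mg per kg and 0.125 mg per ml in R, RO and rPS, and all treated groups had 11 daily doses. A group given CMC alone was not analysed here, so R cannot be told apart from its vehicle. The labels number the libraries of a group as replicates without saying that each is a separate mouse, so p-values measure the spread between these libraries.

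Before a cell copies its genome, Cdc6 and Cdt1 load the ring of Mcm2 to Mcm7 onto origins in G1. At the start of S phase Mcm10, Cdc45 and the GINS proteins turn that ring into an active helicase, and polymerases, the clamp Pcna and its Rfc loaders then copy DNA while Fen1 and Lig1 join the lagging strand. Ribonucleotide reductase (Rrm1 and Rrm2) and thymidylate synthase (Tyms) supply nucleotides, Chaf1a and Chaf1b place histones behind the fork, and Uhrf1 carries DNA methylation over to the new strand. Many of these genes are targets of E2F transcription factors, which cyclin E and its kinase release from the retinoblastoma protein. Rapamycin inhibits mTORC1, a kinase complex that T cells use to grow and enter the cycle after stimulation. Most T cells of an unstimulated spleen are at rest, and dividing B cells, red cell precursors and myeloid precursors of the spleen use the same genes.

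A feature of the members that does not come from the counts is the promoter sequence. Many of these genes are known E2F targets, so a share with a motif above that of all genes may follow from the choice of the list. E2F motifs were searched as 4 sequences of 8 bases (TTTCCCGC, TTTCGCGC, TTTGCCGC and TTTGGCGC) on both strands, where a motif on one strand can overlap a motif on the other. The windows ran from 250 bases before to 50 bases after each start in the RefSeq table of build GRCm38.p6. A window was found for 32 of the 38 members, and 13 of these (40.6%) held a motif, against 487 of 10801 tested genes with a window (4.51%) and 744 of all 32851 windows of that length (2.26%). These 4 stretches show the motif in capitals in a chromatin factor, 2 licensing genes whose RNA was called in the comparisons below, and the helicase subunit Mcm6, which was not called.
Uhrf1, GRCm38.p6 chr17:56304088-56304147, + strand: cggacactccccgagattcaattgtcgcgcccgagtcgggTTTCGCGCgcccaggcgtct
Mcm5, GRCm38.p6 chr8:75109320-75109379, + strand: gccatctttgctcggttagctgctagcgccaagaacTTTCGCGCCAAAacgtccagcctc
Cdc6, GRCm38.p6 chr11:98907973-98908032, + strand: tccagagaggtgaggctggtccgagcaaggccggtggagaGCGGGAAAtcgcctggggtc
Mcm6, GRCm38.p6 chr1:128359733-128359823, - strand: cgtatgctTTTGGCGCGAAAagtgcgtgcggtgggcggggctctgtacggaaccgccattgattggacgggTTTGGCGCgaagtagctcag
The Mcm5 run of 12 capitals and the longer run of Mcm6 each hold overlapping motifs of opposite strands, and the Cdc6 run is the reverse complement of TTTCCCGC. Uhrf1 has 2 starts in the table, and the stretch lies 166 to 225 bases before the later one. Of the 15 members with a window that were called lower in rPS than in NT, 6 held a motif, and of the 17 other members with a window 7 did. The motif was therefore about as frequent among members that were not called as among those that were.

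Total counts ran from 4286885 to 15696529 per library, and a count of 0 allows up to 3 counts. Against their label, 6 libraries (replicates 3, 4, 7 and 8 of NT and replicate 3 of both R and RO) were poor in T cell transcripts. Their mean log2 level of T cell markers was well below that of monocyte and macrophage markers. Each mean used only those of the 12 T cell and 6 monocyte and macrophage markers that were above 0 in RO replicate 7. Cd3e, which signals for the T cell receptor, was at 10.8 to 52.9 CPM in these 6 and at 130 to 509 CPM in 21 others, while Lyz2, the lysozyme of myeloid cells, was at 1940 to 4420 against 19.5 to 483 CPM. NT replicate 5 lay between, with Cd3e at 69.1 and Lyz2 at 631 CPM and with means of 5.843 and 5.885 for these T cell and monocyte and macrophage markers. RO replicate 7 listed 0 for 5315 of the 17182 tested genes (30.9%), among them 8 members (Mcm4, Cdc45, Pola1, Rfc4, Fen1, Chaf1a, Chaf1b and Uhrf1), for which the fit dropped that library and RO has 5 values. The 6 T-cell-poor libraries and RO replicate 7 are called the 7 libraries from here on. Fits without them keep only replicates 2, 5 and 6 of NT. Malat1, an abundant nuclear RNA, had a listed value of 0 throughout NT (7 libraries) and in RO replicate 7, against 16810 to 28400 CPM in the other 20, and whether NT was counted in another way is not given in the sources used here. CPM below are counts scaled to library size with TMM and are not corrected for gene length, so they compare groups within a gene and not one gene with another.

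Of the comparisons with untreated mice, edgeR called the most replication genes in that of the loaded polymersomes. Of the 38 members 17 fell and 0 rose in rPS against NT, where edgeR's quasi-likelihood test called 22.7% of all tested genes in either direction, 11.6% lower and 11.0% higher. The median log2 fold change was -0.50 over the members and -0.01 over all tested genes, and 31 of the 38 were negative. In R against NT 4 members fell (Mcm5, Rrm1, Pole and Uhrf1) and 0 rose, with 0.838% of all genes called, 0.768% lower and 0.0698% higher. The median of the members was -0.43 there, with 35 of 38 negative. The order of the groups rests on the test, since limma voom with sample quality weights called 20 members lower in both (35.7% of all genes called in rPS and 41% in R), and a fit with covariates from other-cell markers called 9 lower in rPS and 12 in R (10.9% and 2.23% of all genes). The test called 0 members in RO against NT (0.0116% of all genes) and in PS against NT (7.28%, with 3.90% lower and 3.38% higher), with medians of -0.23 and -0.20. Those medians were -0.14 and -0.11 without the 7 libraries, and -0.13 and -0.02 with the covariates. At an unadjusted p under 0.05 there were 10 members in RO, where 14.6% of all genes passed, and 5 in PS, where 32.3% did. DESeq2 called 1 member in RO and 2 in PS, with 1.73% and 18.3% of all genes. By limma voom 17 members were called in RO (14 lower and 3 higher) and 18 in PS (14 lower and 4 higher), with 47.1% and 54.6% of all genes. In PS each of these shares of the members was below that of all genes, a difference that was not tested. These 4 comparisons share the NT libraries, so their signs are not independent of each other.

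No member was called by edgeR between treated groups. DESeq2 called 1 member in rPS against PS and 1 in rPS against RO (0.297% and 0.611% of all genes), and limma voom 2 in R against RO (0.96%) and 0 in the other 3. In rPS against PS, which shows the drug on the same carrier, 7 members had an unadjusted p under 0.05 (5.11% of all genes did), 30 of 38 were negative and the median was -0.24. There 0.0931% of all genes were called, 0.0815% lower. In rPS against R, the same dose under the skin in the carrier or in CMC, 17 of 38 were negative and 5 members had an unadjusted p under 0.05, a share near the 11.4% of all genes. The median was 0.04, but -0.03 without the 7 libraries and 0.21 with the covariates, and 0.0116% of all genes were called, 0.00582% in each direction. For rPS against RO the median was -0.19 with 10 members at an unadjusted p under 0.05, as 9.09% of all genes were (0.0233% of all genes called). For R against RO it was -0.18 with 6, as 3.33% of all genes were (0% of all genes called). The difference of rPS from PS less that of R from NT, the latter including CMC and its injection, was tested as an interaction. It had 0 members called and 0 at an unadjusted p under 0.05, with 0.0175% of all genes called and 5.02% at an unadjusted p under 0.05. Its median was 0.24, with rPS minus PS the less negative difference, but 0.03 without the 7 libraries and -0.02 when NT replicate 5 was left out too.

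**Figure D1:**
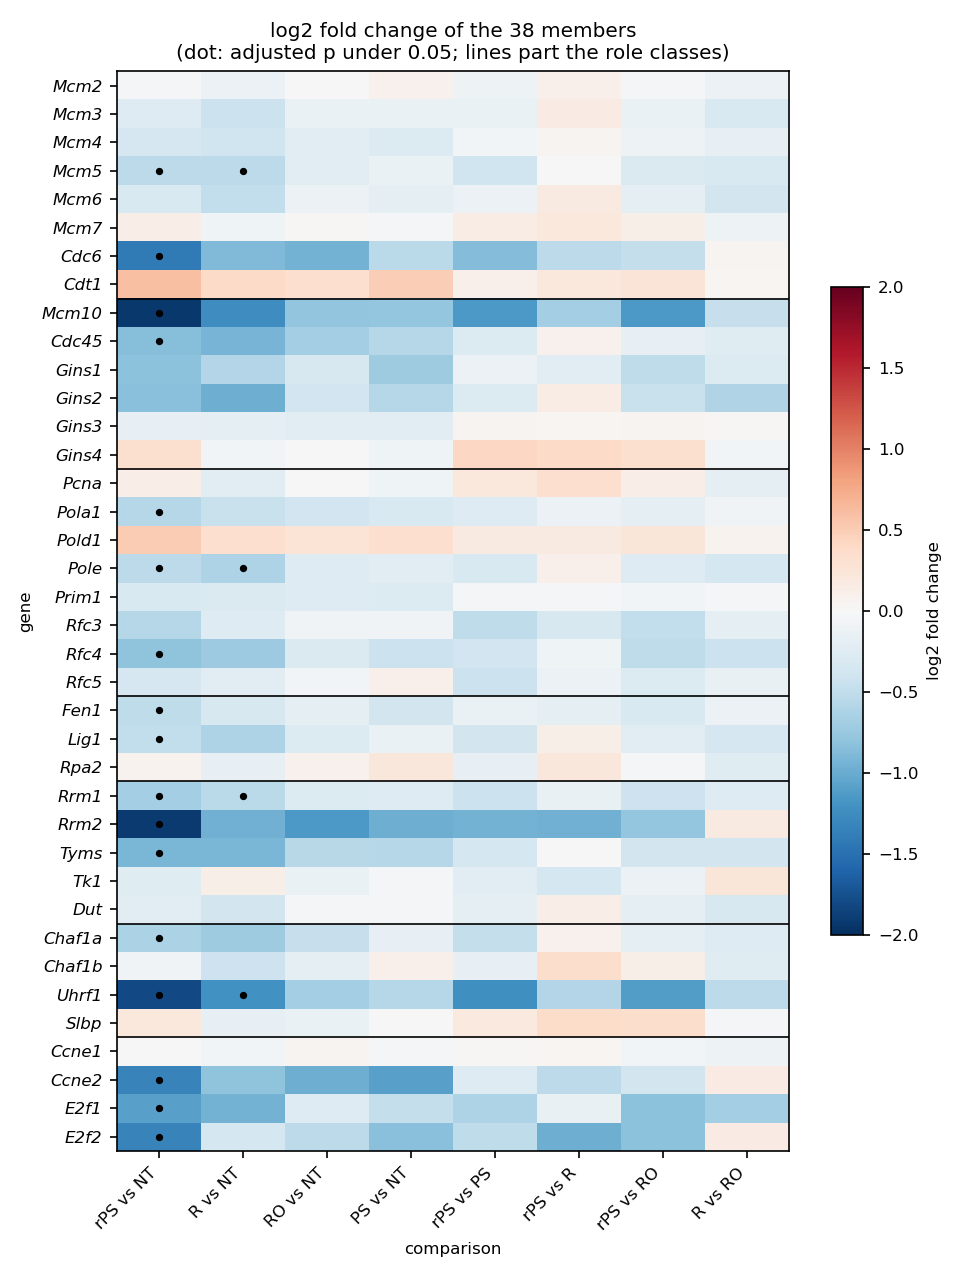
Log2 fold change of each of the 38 genes (rows, parted by role) in each of the 8 comparisons (columns), with a colour scale from -2 to 2 and a dot where the adjusted p was under 0.05. The 17 dots of rPS vs NT and the 4 dots of R vs NT are all on blue cells, and the column of rPS vs R has about as many red as blue cells.

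In bulk RNA a lower level can come from fewer cells that express a gene or from less RNA per cell, and these cannot be told apart. Averaged over the 29 members above 0 in every library, the mean log2(CPM + 1) was 4.80 ± 0.13 in NT (SD, n = 7), 4.64 ± 0.05 in PS (n = 4), 4.42 ± 0.26 in R (n = 6), 4.62 ± 0.04 in RO (n = 6) and 4.38 ± 0.22 in rPS (n = 5). PS and RO were tight, whereas R and rPS were spread wide. R replicate 3, a T-cell-poor library, was the lowest of all at 4.03 and the lowest of its group in 21 of the 38 members, while R replicate 4 reached 4.81. Within rPS, replicate 5 was lowest at 4.08 (lowest in 17 members) and replicate 4 highest at 4.67 (highest in 20). By group mean, rPS was the lowest group for 17 members and R for another 17, and NT was the highest for 26.

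**Figure D2:**
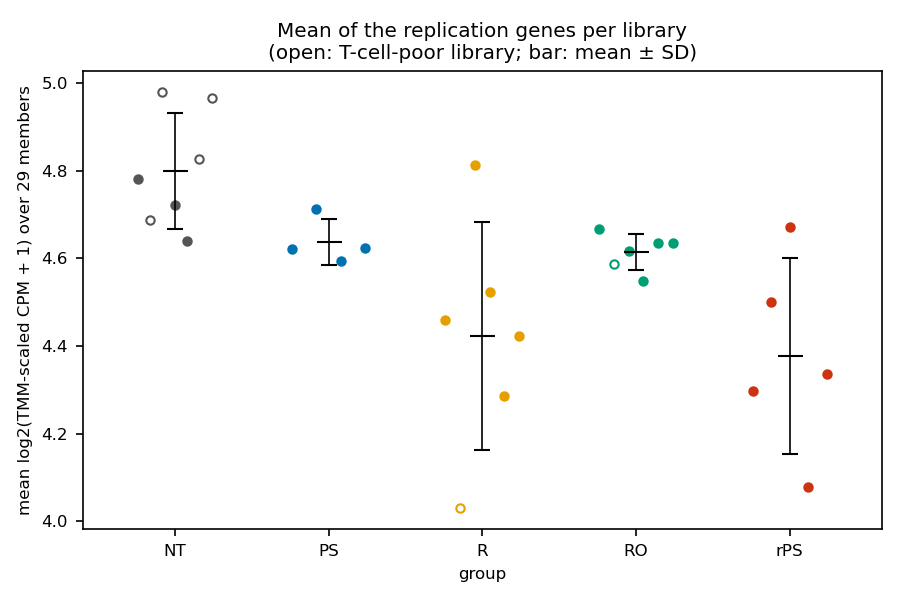
Mean log2(TMM-scaled CPM + 1) over 29 replication genes (vertical axis) for each library of the 5 groups (horizontal axis), with open points for the 6 T-cell-poor libraries and bars for mean ± SD. The rPS points run from 4.08 to 4.67 and the NT points from 4.64 to 4.98, and R spans both, from 4.03 to 4.81.

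The 4 T-cell-poor libraries of NT stood apart from the other 3 about as often among the members as among all tested genes. In 7 of the 38 (Mcm10, Cdc6, Gins1, Uhrf1, Ccne2, E2f1 and E2f2) all 4 lay above the other 3 NT libraries, as they did in 17.1% of all tested genes. Of these 7 members 6 are among the 17 called in rPS against NT, an overlap that was not counted over all genes. In 4 members (Gins4, Ccne1, Dut and Rpa2) the T-cell-poor libraries all lay below, as in 12.3% of all genes, and none of these members was called. Without the 7 libraries, 4 members were lower in rPS than in NT, namely Uhrf1, Rrm2, Rrm1 and Rfc4, and 3.19% of all genes were called. Without NT replicate 5 as well (the 8 libraries) these 4 were called together with Mcm4 and Mcm6, and 14.7% of all genes were. That fit keeps only replicates 2 and 6 of NT. The part of the smaller NT group in lost calls and turned signs was not tested. Some markers of other cells also differed between rPS and NT. The summed level of 6 germinal centre B cell markers was 36.5 to 60.2 CPM in NT and 14.4 to 20.9 CPM in rPS, where 1 of the 6 was at 0 throughout, that of 4 NK cell markers 38.8 to 106 against 16.8 to 28.9 CPM, and that of 5 plasma cell markers 285 to 1430 against 86.9 to 344 CPM. Monocyte and macrophage markers were at 458 to 7270 CPM in NT and 96.9 to 1220 CPM in rPS, and neutrophil markers at 11.6 to 2020 and 3.2 to 26.1 CPM. In NT replicates 2 and 6, which were not T-cell-poor, the former were at 866 and 458 CPM and the latter at 39.2 and 11.6 CPM. T cell markers were at 345 to 4120 CPM in NT and 1090 to 2980 CPM in rPS. Medians of B cell and erythroid markers were 2440 and 1140 CPM in NT and 2330 and 904 CPM in rPS. For the germinal centre list PS was at 22.5 to 38.7 CPM, above rPS and overlapping NT. R was at 14.8 to 20.03 CPM, much as rPS, in all replicates but the T-cell-poor replicate 3, which was at 63.9 CPM. RO ran from 23.8 to 43.1 CPM, with the highest value in its T-cell-poor replicate 3.

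Within rPS the mean of the 29 members followed summed B cell markers. These 6 markers summed to 318, 912, 2329, 2416 and 3876 CPM in replicates 5, 1, 7, 2 and 4, whose means over the members were 4.08, 4.30, 4.34, 4.50 and 4.67, and they spanned 1820 to 3510 CPM in NT. In the same rPS libraries erythroid markers summed to 104, 775, 1997, 904 and 3235 CPM, and T cell markers to 2979, 2171, 1744, 2134 and 1093 CPM. The order did not hold in NT, where replicate 4 had 1833 CPM of B cell markers and a mean of 4.98, and replicate 5 had 3507 CPM and 4.72. Nor did it hold in R, where replicate 6 had 3698 CPM and a mean of 4.29. A further fit had 3 covariates, the means of those B cell, monocyte and macrophage, and erythroid markers that were above 0 in every library. In it 6 of the 17 calls of rPS against NT remained (Uhrf1, Rrm1, Rrm2, Rfc4, Tyms and Ccne2). Mcm4, Mcm6 and Rfc5 were then called lower and Pold1 higher, and 10.9% of all genes were called. E2f1 moved from -1.09 to -0.10 in that fit, E2f2 from -1.34 to -0.35, Mcm10 from -1.92 to -0.83 and Cdc6 from -1.41 to -0.66, and none of these 4 was called in it. The part of the germinal centre, NK cell, plasma cell and neutrophil markers, which were not in that fit, was not tested.

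Of the 8 licensing genes the loader Cdc6 and the ring subunit Mcm5 fell in rPS against NT, and the other 6 were not called. The class ran from -1.41 to 0.60 in log2 fold change. Cdc6, which opens the way for the ring, was at 2.53, 3.20, 6.21, 1.73 and 3.81 CPM in rPS replicates 1, 2, 4, 5 and 7, and at 6.57, 6.57, 6.05 and 6.01 CPM in PS replicates 1, 3, 4 and 5. NT ran from 3.86 through a median of 7.76 to 13.3 CPM, R from 2.28 through 4.62 to 8.04, and RO from 3.29 through 5.06 to 5.49. Replicate 4 of rPS lay within the PS values and the other 4 lay below all of PS, but rPS and NT overlapped because NT replicate 6 was at 3.86 CPM. Against NT the log2 fold change of rPS was -1.41 ± 0.33 (SE, edgeR adjusted p = 0.00499), and without the 7 libraries it was -0.81 ± 0.38 and was not called (adjusted p = 0.217).

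Mcm5, a subunit of the ring, was at 39.0, 55.8, 56.1, 32.9 and 50.6 CPM in the rPS libraries and at 59.9, 59.0, 61.5 and 65.7 CPM in the PS libraries. NT ran from 56.1 through 64.5 to 81.3 CPM, R from 35.9 through 47.1 to 60.6, and RO from 53.1 through 57.1 to 65.4. All rPS libraries lay below all of NT and PS, but the highest rPS value and the lowest NT value were all but equal. Mcm5 had a log2 fold change of -0.52 ± 0.13 in rPS (edgeR adjusted p = 0.00857) and -0.53 ± 0.13 in R (adjusted p = 0.0387) against NT, and neither was called without the 7 libraries (adjusted p = 0.148 and 0.55). Mcm3, Mcm4 and Mcm6, further subunits, had -0.26, -0.34 and -0.31 in rPS against NT, while Mcm2 at -0.02 and Mcm7 at 0.13 were near 0, and none of the 5 was called. Without the 8 libraries Mcm4 and Mcm6 were lower, at -0.66 and -0.47 (adjusted p = 0.00765 and 0.0286), and with the covariates at -0.56 and -0.44 (adjusted p = 0.0254 and 0.0286). Cdt1, the partner of Cdc6, had a positive value of 0.60 ± 0.26 that was not called (adjusted p = 0.0942). Its values ran from 34.5 to 124 CPM in rPS and from 36.5 to 55.2 CPM in NT.

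Helicase activation held Mcm10, which with Rrm2 had the most negative fitted values of rPS against NT in the list, both at -1.92. Mcm10, which helps the ring unwind DNA, was at 3.61, 2.28, 4.72, 0.267 and 0.952 CPM in rPS and at 4.51, 5.13, 4.99 and 5.79 CPM in PS. NT ran from 3.51 through 10.2 to 12.3 CPM, R from 2.49 through 3.44 to 5.68, and RO from 2.58 through 5.66 to 6.72. The value of rPS replicate 5 is under the 3 counts (0.388 CPM before scaling) that a count of 0 would allow in that library. In NT the 4 T-cell-poor libraries held 10.2 to 12.3 CPM and the other 3 held 3.51 to 7.54 CPM, so that the latter lay close to the PS and RO values. The log2 fold change of rPS against NT was -1.92 ± 0.43 (edgeR adjusted p = 0.00425), and -1.24 ± 0.50 without the 7 libraries (adjusted p = 0.162). Cdc45, a core part of the active helicase, fell by 0.84 on the log2 scale in rPS (adjusted p = 0.0473), from 4.62 to 9.93 CPM in NT to 1.99 to 6.21 CPM in rPS. Of the GINS proteins, Gins1 and Gins2 had -0.82 and -0.84 (adjusted p = 0.116 and 0.0541), Gins3 -0.16 and Gins4 0.33, and none was called. Gins1 turned to 0.13 without the 8 libraries. Gins2 in R lay below NT in all libraries, at 2.85 to 9.15 against 9.77 to 14.6 CPM, and the test did not call it.

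Polymerase and clamp genes changed in part. Of the 8 members of this class 3 fell in rPS against NT (Pole, Pola1 and Rfc4), and the class median was -0.43. Rfc4, a subunit of the clamp loader, was at 4.87, 4.45, 3.48, 3.73 and 2.86 CPM in rPS, 3.60, 7.05, 5.63 and 4.08 CPM in PS, and 5.91, 5.57, 5.59, 6.39 and 4.35 CPM in RO replicates 1, 3, 4, 5 and 6. NT ran from 5.20 through 6.31 to 9.58 CPM and R from 2.50 through 4.29 to 4.97. Every rPS and every R library lay below every NT library. In rPS against NT the log2 fold change was -0.81 ± 0.21 (edgeR adjusted p = 0.0102), it was -0.98 ± 0.24 without the 7 libraries (adjusted p = 0.0316), and that of R was -0.73 ± 0.20 and not called (adjusted p = 0.0724). In NT the T-cell-poor libraries were not the high ones for this gene, at 5.20 to 7.82 against 6.31 to 9.58 CPM in the other 3.

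Pole, the catalytic subunit of the polymerase of the leading strand, was at 22.02, 18.8, 23.1, 18.9 and 19.2 CPM in rPS and at 28.3, 27.7, 23.5 and 21.3 CPM in PS. NT ran from 24.04 through 28.03 to 35.8 CPM, R from 10.5 through 18.5 to 28.4, and RO from 19.7 through 25.4 to 26.4. The rPS values lay below all of NT and overlapped PS. The log2 fold changes were -0.52 ± 0.16 in rPS (edgeR adjusted p = 0.0218) and -0.62 ± 0.15 in R (adjusted p = 0.0456) against NT. Pola1, the catalytic subunit of the polymerase that starts new strands, was at 32.3, 30.3, 14.2, 19.9 and 19.4 CPM in rPS, 34.8, 32.9, 22.8 and 21.2 CPM in PS and 23.8, 28.6, 29.2, 24.3 and 26.9 CPM in RO. NT ran from 26.4 through 35.1 to 44.3 CPM and R from 20.2 through 25.04 to 29.4. The rPS libraries fell into 2 that overlapped NT and 3 below it, and the log2 fold change was -0.57 ± 0.18 (adjusted p = 0.0265). Neither gene was called without the 7 libraries (adjusted p = 0.194 for Pole and 0.355 for Pola1). Rfc3 and Rfc5, the other loader subunits here, lay below PS in all rPS libraries, at 3.97 to 7.31 against 7.72 to 9.14 CPM and at 14.6 to 24.2 against 25.2 to 30.6 CPM, without being called. The clamp Pcna itself was not called and had log2 fold changes of 0.13 in rPS and -0.20 in R against NT (-0.06 in rPS without the 8 libraries), and Pold1, the catalytic subunit of the lagging strand polymerase, had 0.51 in rPS with values up to 215 CPM in that group. Prim1, a primase subunit, had -0.31 and was not called.

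Of the lagging strand genes Fen1 and Lig1 fell in rPS against NT close to the threshold, and Rpa2, which coats single strands, was not called at 0.06, nor at -0.17 without the 7 libraries. Lig1, the ligase that seals the lagging strand, was at 23.6, 25.7, 41.7, 15.1 and 31.6 CPM in rPS and at 36.2, 32.7, 36.1 and 36.3 CPM in PS. NT ran from 30.2 through 35.6 to 54.2 CPM, R from 19.96 through 24.4 to 33.4, and RO from 26.7 through 33.6 to 35.2. Replicate 4 of rPS exceeded every PS library, and rPS and NT overlapped. The log2 fold changes against NT were -0.49 ± 0.18 in rPS (edgeR adjusted p = 0.0493) and -0.61 ± 0.17 in R (adjusted p = 0.0835). Fen1, the flap nuclease, had -0.50 ± 0.18 in rPS (adjusted p = 0.0499), at 17.2 to 37.0 CPM against 30.7 to 58.7 CPM in NT.

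Both subunits of ribonucleotide reductase fell in rPS against NT. Of the 5 members of nucleotide supply Rrm1, Rrm2 and Tyms fell, and Dut, which breaks down dUTP, and Tk1, thymidine kinase, had -0.23 and -0.25 and were not called. Tk1 turned to 0.10 without the 7 libraries and to 0.41 with the covariates. Rrm2, the small subunit that is made in S phase, was at 11.2, 10.8, 14.2, 3.20 and 4.76 CPM in rPS and at 16.6, 16.03, 15.7 and 18.8 CPM in PS. NT ran from 19.1 through 29.3 to 59.0 CPM, R from 8.84 through 15.4 to 32.4, and RO from 11.8 through 15.2 to 17.7. Each of rPS, PS and RO lay below NT in every library, and rPS also lay below PS in every library, while R reached into the NT range. The log2 fold change of rPS against NT was -1.92 ± 0.36 (edgeR adjusted p = 0.00122), and -1.58 ± 0.40 without the 7 libraries (adjusted p = 0.0355). Against NT it was -0.96 ± 0.32 in R, -1.14 ± 0.32 in RO and -0.98 ± 0.36 in PS, with adjusted p-values of 0.152, 0.134 and 0.0761, and the value of PS was 0.03 with the covariates. Against PS, rPS had -0.94 ± 0.38 (adjusted p = 0.792).

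Rrm1, the large subunit, was at 32.5, 42.5, 37.0, 38 and 35.8 CPM in rPS and at 47.8, 52.6, 48.9 and 50.05 CPM in PS. NT ran from 46.1 through 60.0 to 81.4 CPM, R from 25.8 through 43.0 to 54.2, and RO from 46.2 through 48.0 to 56.9. All rPS libraries lay below all libraries of NT, PS and RO, a pattern that only Uhrf1 shared among the 38 members. The log2 fold change against NT was -0.69 ± 0.14 in rPS (edgeR adjusted p = 0.00213) and -0.54 ± 0.13 in R (adjusted p = 0.0456), and without the 7 libraries -0.49 ± 0.13 in rPS (adjusted p = 0.0392) and -0.24 in R, which was not called (adjusted p = 0.602). Against PS and RO the values of rPS were -0.42 ± 0.16 and -0.41 ± 0.14 and were not called (adjusted p = 0.675 and 0.354). Tyms, which makes thymidylate, was at 5.23, 4.34, 5.96, 7.20 and 2.48 CPM in rPS and at 5.28, 9.62, 6.16 and 4.77 CPM in PS. NT ran from 6.54 through 9.58 to 12.5 CPM, R from 2.96 through 5.33 to 7.01, and RO from 4.51 through 6.67 to 8.68. The Tyms log2 fold changes against NT were nearly the same in rPS (-0.91 ± 0.25, adjusted p = 0.0126) and in R (-0.91 ± 0.23, adjusted p = 0.0553), although R was not called. Without the 7 libraries Tyms was not called in rPS either (-0.76 ± 0.31, adjusted p = 0.159).

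The chromatin class held the member with the smallest adjusted p. Uhrf1, which reads hemimethylated DNA behind the fork and brings in Dnmt1, was at 14.3, 15.6, 17.6, 8.27 and 11.4 CPM in rPS and at 33.2, 32.1, 30.6 and 29.6 CPM in PS. The 5 RO values were 31.6, 28.3, 27.5, 24.7 and 32.9 CPM, NT ran from 27.2 through 42.5 to 75.6 CPM, and R from 11.7 through 20.1 to 27.2. Every rPS library lay below every NT, PS and RO library, and R lay between, overlapping rPS, with its highest library (27.16 CPM) just under the lowest of NT (27.21 CPM). The log2 fold change against NT was -1.80 ± 0.24 in rPS (edgeR adjusted p = 7.12e-05), -1.22 ± 0.22 in R (adjusted p = 0.00707), -0.69 ± 0.22 in RO (adjusted p = 0.186) and -0.57 ± 0.24 in PS (adjusted p = 0.106). The PS value turned to 0.16 with the covariates and to 0.04 without the 8 libraries. In rPS against PS it was -1.23 ± 0.26 with an adjusted p of 0.0524, just above the threshold, against RO -1.11 ± 0.25 (adjusted p = 0.089) and against R -0.58 ± 0.24 (adjusted p = 0.376). Without the 7 libraries Uhrf1 was lower in rPS both against NT (-1.28 ± 0.23, adjusted p = 0.00546) and against PS (-1.23 ± 0.21, adjusted p = 0.0122). In R against NT the value without them was -0.69 and was not called (adjusted p = 0.328). The T-cell-poor libraries were the high ones in NT, at 42.5 to 75.6 CPM against 27.2 to 35.6 CPM, and the latter range held all 4 PS values.

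Chaf1a, the large subunit of the factor that places new histones, was at 14.3, 14.2, 21.9, 11.2 and 17.9 CPM in rPS, 24.3, 26.6, 19.9 and 17.1 CPM in PS and 18.7, 18.6, 16.5, 14.9 and 20.9 CPM in RO. NT ran from 12.3 through 26.5 to 30.7 CPM and R from 11.8 through 14.2 to 21.3. Replicate 6 of NT was as low as the rPS libraries, so the groups overlapped. For Chaf1a the log2 fold change of rPS against NT was -0.63 ± 0.21 (edgeR adjusted p = 0.035), and it turned to 0.12 (adjusted p = 0.758) without the 8 libraries. Its partner Chaf1b had -0.06 in rPS and -0.42 in R against NT, and Slbp, which binds histone messenger RNA, had 0.21 and -0.16, with none of them called.

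G1/S control changed through E2f1, E2f2 and Ccne2, whereas Ccne1 was not called at -0.01. E2f2, an activating E2F factor that is also abundant in red cell precursors, was at 40.1, 47.3, 79.5, 18.9 and 50.5 CPM in rPS and at 67.2, 62.8, 62.5 and 74.8 CPM in PS. NT ran from 56.1 through 113 to 218 CPM, R from 62.8 through 78.4 to 147, and RO from 57.1 through 75.1 to 143. The highest value of both R and RO was in their T-cell-poor library, and the 4 such libraries of NT, at 113 to 218 CPM, lay above the other 3. The E2f2 log2 fold change of rPS against NT was -1.34 ± 0.32 (edgeR adjusted p = 0.00593), and -0.77 ± 0.30 without the 7 libraries (adjusted p = 0.141). Summed erythroid markers were 674 to 3340 CPM in NT and 104 to 3230 CPM in rPS, with the lowest rPS value in replicate 5. Replicate 3 of R and of RO, with the highest E2f2 of their groups, had the lowest erythroid sums there, at 91.5 and 127 CPM. With the B cell, monocyte and macrophage, and erythroid covariates fitted together, E2f2 was at -0.35 ± 0.20 (edgeR adjusted p = 0.252). The part of the erythroid markers alone was not tested.

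E2f1, the related activator, was at 4.87, 4.80, 11.7, 3.87 and 8.38 CPM in rPS and at 9.91, 8.98, 8.39 and 13.2 CPM in PS. NT ran from 5.65 through 16.7 to 20.5 CPM, R from 4.69 through 7.46 to 10.7, and RO from 8.23 through 10.8 to 19.4. The 4 T-cell-poor NT libraries held 16.7 to 20.5 CPM and the other 3 held 5.65 to 10.8 CPM, which is within the range of the treated groups. For E2f1 the log2 fold change was -1.09 ± 0.32 in rPS against NT (edgeR adjusted p = 0.0195), and -0.31 ± 0.32 without the 7 libraries (adjusted p = 0.608). Ccne2, a cyclin E, was at 2.17, 1.71, 3.47 and 1.52 CPM in rPS replicates 1, 2, 5 and 7 and listed at 0 in replicate 4, where a count of 0 allows up to 0.7 CPM. PS was at 2.32, 2.40, 2.23 and 1.82 CPM, NT ran from 2.55 through 3.62 to 7.32, R from 1.66 through 2.66 to 4.13, and RO from 1.72 through 2.43 to 2.704. PS lay wholly below NT, and rPS did not because of replicate 5. The Ccne2 log2 fold change was -1.34 ± 0.40 in rPS (adjusted p = 0.0212) and -1.09 ± 0.43 in PS (adjusted p = 0.0883) against NT. Without the 7 libraries it was -0.70 in rPS (adjusted p = 0.398).

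**Figure D3:**
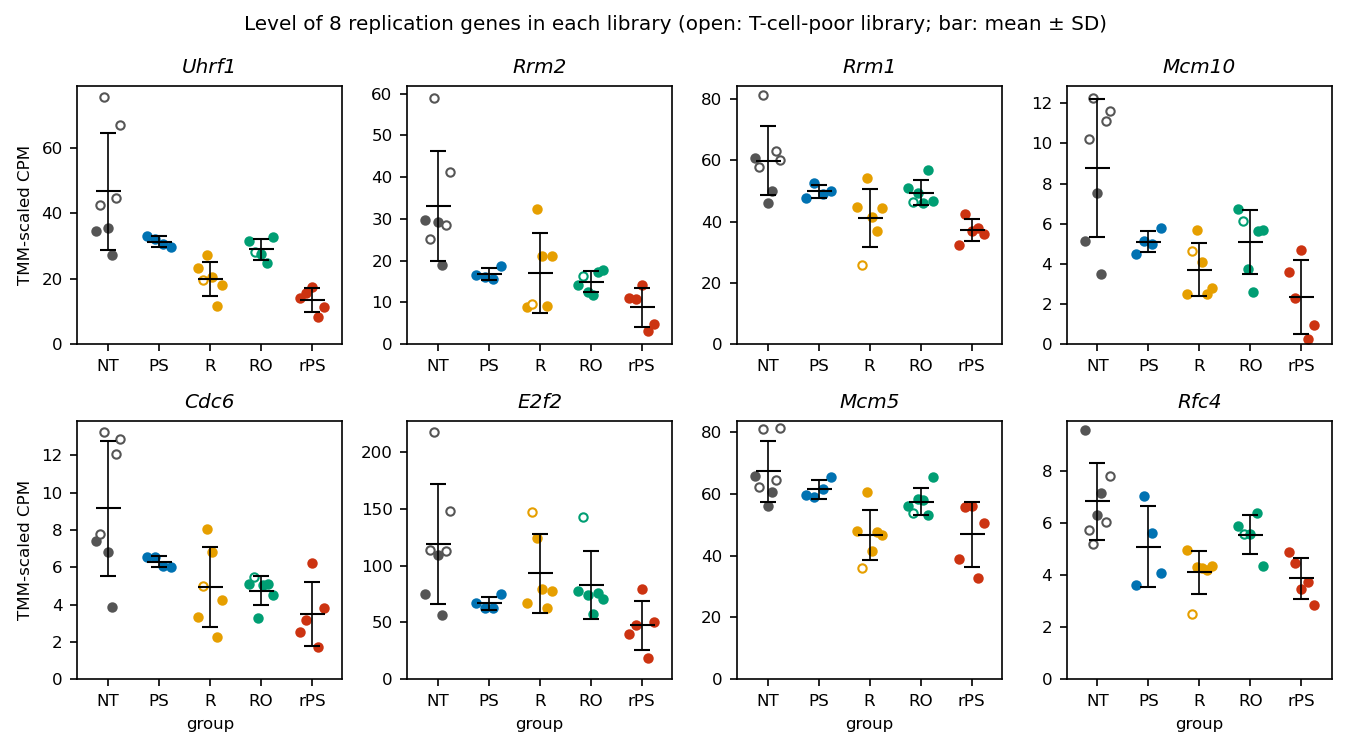
TMM-scaled CPM (vertical axes, each from 0) of the 8 genes with the smallest adjusted p, for every library of the 5 groups (horizontal axes), with open points for T-cell-poor libraries and bars for mean ± SD. For Uhrf1 the rPS points (8.27 to 17.6) lie below all NT, PS and RO points, and for Mcm10, Cdc6 and E2f2 the open NT points lie above the filled ones.

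Counted by libraries that did not overlap, 6 members (Mcm5, Rrm1, Rrm2, Pole, Rfc4 and Uhrf1) were lower in rPS than in NT throughout, where 1.89% of all genes were. In rPS against PS there were also 6 (Mcm5, Rrm1, Rrm2, Rfc3, Rfc5 and Uhrf1), against 1.74% of all genes. RO lay above rPS throughout for Rrm1 and Uhrf1 (0.797% of all genes), and R and rPS were not parted for any member (0.425%). For R against NT the count was 3 (Gins2, Rfc4 and Uhrf1, 0.338% of all genes), for PS against NT 2 (Rrm2 and Ccne2, 4.47%), for RO against NT 1 (Rrm2, 0.367%) and for R against RO 0 (0.250%). No member was higher throughout in any of the 8 comparisons, where 1.30% (rPS against NT), 0.198% (R against NT), 0.239% (RO against NT), 5.61% (PS against NT), 1.26% (rPS against PS), 0.524% (rPS against R), 0.437% (rPS against RO) and 0.0873% (R against RO) of all genes were.

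The 17 members called in rPS against NT can be followed through the other groups. All 17 were negative in R, RO and PS against NT, with medians of -0.73, -0.45 and -0.48, but NT is shared by these comparisons. Without the 8 libraries 1 of the 17 was positive in R (E2f2), 4 in RO and 9 in PS. In rPS against PS, which shares the rPS libraries with the comparison that chose the 17, they were again all negative, with a median of -0.39 and a range from -1.23 to -0.13. In rPS against R, which shares them too, 12 were negative, with a median of -0.15 and a range from -0.98 to 0.12. Because the 17 were chosen with the rPS libraries, lower values in both comparisons follow in part from that choice. Rrm2 and E2f2 had the most negative values in rPS against R, at -0.96 ± 0.36 and -0.98 ± 0.32 (edgeR adjusted p = 0.33 and 0.282), while Mcm5 at 0.01 ± 0.14 and Tyms at 0.00 ± 0.26 were level.

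Most other genes of the pathway were not called. Of 48 further replication genes 9 were lower and 2 higher in rPS against NT, where 11.6% and 11.0% of all genes were, and the median was -0.20. Those with the smallest p were Ticrr, which helps Cdc45 onto the ring (-1.46 ± 0.30, edgeR adjusted p = 0.00208), Asf1b, a histone chaperone (-1.64 ± 0.34, adjusted p = 0.00262), Clspn, which couples the fork to the checkpoint (-1.32 ± 0.30, adjusted p = 0.00443), and Rfwd3, a ubiquitin ligase at stalled forks (-0.50 ± 0.13, adjusted p = 0.00893). The 2 higher genes, named because of their small number, were Donson, a helicase assembly factor, at 0.70 and Rnaseh2a, the catalytic subunit of a nuclease that removes RNA from DNA, at 0.51. In R against NT 1 of the 48 was lower (Clspn, -1.24 ± 0.28, edgeR adjusted p = 0.0317), where 0.768% of all genes were. In PS against NT 1 was higher (Pola2, the partner of Pola1, 0.33 ± 0.09, edgeR adjusted p = 0.0432), where 3.38% of all genes were. The test called 0 of them in the other comparisons. At an unadjusted p under 0.05 were 7 of the 48 in RO against NT (14.6% of all genes), 5 in rPS against PS (5.11%), 5 in rPS against R (11.4%), 4 in rPS against RO (9.09%) and 2 in R against RO (3.33%).

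Of 27 further genes of G1/S control 9 were lower and 3 higher in rPS against NT, the latter a share close to the 11.0% of all genes. The lower ones with the smallest p were Ccna2, the cyclin of S phase and G2 (-2.40 ± 0.35, edgeR adjusted p = 0.000177), E2f7, an E2F repressor (-2.37 ± 0.36, adjusted p = 0.000211), Cks1b, a partner of cyclin-dependent kinases (-1.47 ± 0.27, adjusted p = 0.00104), and Rb1, the retinoblastoma protein (-0.89 ± 0.19, adjusted p = 0.00316). The 3 higher genes, named for the same reason, were Myc at 1.06 ± 0.34, the cyclin Ccnd3 at 0.73 ± 0.19 and its kinase Cdk6 at 0.35 ± 0.09, which act in G1. In R against NT 2 were lower, where 0.768% of all genes were. These were E2f7 at -1.55 ± 0.31 (edgeR adjusted p = 0.0144) and Cks1b at -0.99 ± 0.24 (edgeR adjusted p = 0.0463). The test called 0 in the other comparisons. At an unadjusted p under 0.05 there were 7 of the 27 in RO against NT (14.6% of all genes), 7 in PS against NT (32.3%), 5 in rPS against PS (5.11%), 6 in rPS against R (11.4%), 10 in rPS against RO (9.09%) and 1 in R against RO (3.33%).

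How firmly each call stood differed between members. Uhrf1, Rrm1 and Rrm2 were called lower in rPS against NT under all 23 alternative settings and left-out libraries, Rfc4 under 21, Cdc6, E2f2 and Tyms under 20, and Mcm5 and Mcm10 under 19. At the other end Cdc45 was called under 7 of them, Fen1 and Lig1 under 8 and Chaf1a under 9. The 17 calls became 10 after rPS replicate 5 was dropped (14.9% of all genes called) and 11 after NT replicate 7 or rPS replicate 7 was (15.9% and 13.7%). They became 11 when the zeros listed in RO replicate 7 were taken as counts (11.8%). The 4 calls of R against NT ranged from 1 to 9 over left-out libraries, with 38 to 666 genes called over all. Of the 4, 1 was left when NT replicate 3, 4, 7 or 8 or R replicate 2, 6 or 7 was dropped. There were 2 when NT replicate 2 or R replicate 5 was dropped and 7 without NT replicate 6 (1.67% of all genes). There were 9 without NT replicate 5 (3.14%) and 9 without R replicate 3 (3.89%). Without the 8 libraries R against NT had 3 calls, Mcm4, Mcm6 and Chaf1b, none of them among the 4, and 3.58% of all genes were called. Uhrf1 was called in R against NT in 20 of 24 such fits. Where edgeR called 0 members, leaving out a library gave 1 in RO against NT (without RO replicate 3, with 5% of all genes) and 3 in PS against NT (without NT replicate 6, with 15.4%). It gave 1 in rPS against PS (without rPS replicate 4, with 0.158%) and 1 in rPS against RO (without rPS replicate 2, with 0.466%).

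**Figure D4:**
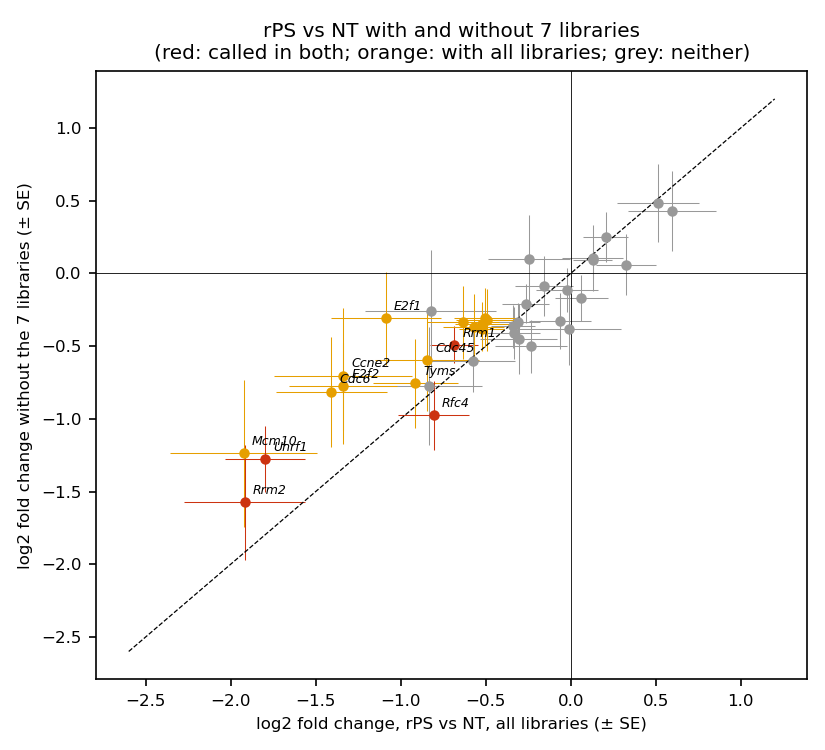
Log2 fold change ± SE of the 38 genes in rPS vs NT with all libraries (horizontal axis) and without the 7 libraries (vertical axis), with the dashed line at equal values. The 4 red points, called in both, include Rrm2 and Uhrf1, and most orange points, called with all libraries alone, lie above the dashed line, closer to 0 without the 7 libraries.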

How the data were processed

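The 28 libraries were grouped by their labels. Each deposited file holds expected counts, that is, estimated fragment counts per gene, of which 21.32% to 25.01% of the values above 0 in a library are fractional, and they were rounded here. Per the submitters' processing notes, Trimmomatic 0.39, STAR 2.7.5a, Cufflinks 2.1.1 and Cuffdiff were used with build GRCm39, and the strand setting is not given in the sources used here, so reads of pseudogenes and of overlapping or antisense genes cannot be told apart from a member's own. Symbols came from GENCODE M21 (GRCm38), which named 52082 of 55413 genes (94.0%).

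Differences were tested with edgeR 4.0.16 in R 4.3.3 (quasi-likelihood, robust, two-sided) on all 28 libraries, with group as the design, TMM scaling and the filterByExpr filter, which left 17182 genes. A gene listed at 0 in RO replicate 7 was fitted on the other 27 libraries, since that file lists 0 for 30.9% of tested genes, and all p-values of a comparison were adjusted together by Benjamini-Hochberg. Called means an adjusted p under 0.05. The fit was tested on simulated data. It recovered 39.8% of 2-fold and 74.5% of 4-fold changes in rPS against NT, with 3 false calls. In rPS against PS it recovered 29.3% and 75.0%, with 7 false calls. The simulation changed few genes (98 by each fold in rPS against NT) and gave the libraries no shared differences in cell content. In the real comparison of rPS with NT 22.7% of all genes were called, so these rates and false calls do not carry over to it. Most 2-fold changes were missed in the simulation, and a member that was not called may still differ. Alternatives were DESeq2 size factors, DESeq2 1.42.0, limma 3.58.1 (voom with sample quality weights), no low-count filter, the compared groups alone, a replicate block, RO replicate 7 left out or kept throughout, covariates from other-cell markers, left-out libraries, and, chosen after seeing the data, 8 libraries left out.

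The members, lists and left-out libraries were chosen with earlier results of these data known, so no list was tested as a set. Full values are given for the called members with the smallest adjusted p, at most 14, and for 1 member of any class without one, and further pathway genes are named by smallest p, at most 4 per comparison and list. No pair of libraries was close to a repeat of the same library, since chi-square per gene was at least 3.3 for each. The floor of 3 counts covers counting error only.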

Additional observations from a re-analysis of the deposited data

Results flagged for a closer look

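The values of 15 members and of the mean over the members were looked at in each group of 4 to 7 libraries, 80 sets in all. In 4 of the 80 the highest or lowest library was set off from the others by more than Dixon's 95% limit. Chance alone does this in about 1 set in 20, and the sets reuse the same libraries. E2f2 was at 142.7 CPM in RO replicate 3, against 57.14 to 77.57 CPM in the other RO libraries. In the same T-cell-poor library E2f1 was at 19.42 CPM, against 8.233 to 12.15 CPM. Rfc4 was at 2.495 CPM in R replicate 3, also T-cell-poor, against 4.214 to 4.972 CPM in the rest of R. Lig1 was at 32.7 CPM in PS replicate 3, against 36.12 to 36.31 CPM in the others of PS.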

How the results depend on the processing

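In rPS against NT edgeR called 17 members with all libraries (22.7% of all genes). The count was 5 with the compared groups alone in the fit (7.07%) and 11 with the zeros of RO replicate 7 taken as counts (11.8%). It was 4 without the 7 libraries (3.19%) and 6 without 8 libraries (14.7%), NT replicate 5 being the added one. With covariates from other-cell markers it was 10 (9 lower and 1 higher, Pold1, with 10.9% of all genes). Over left-out libraries it ran from 10 to 19, with 2351 to 4909 genes called over all. In R against NT the 4 calls became 1 with no low-count filter (0.249% of all genes), 13 by DESeq2 (2.91%) and 22 by limma voom (41%). They became 0 with the compared groups alone (0.0639%), 0 with the zeros taken as counts (0.291%) and 2 without RO replicate 7 (0.665%). Without the 7 libraries there were 0 (0.241%), and with the covariates 12 (2.23%). Over left-out libraries there were 1 to 9, with 38 to 666 genes called over all. RO against NT had 1 call by DESeq2 and 17 by limma voom (0 to 1 over left-out libraries), and PS against NT had 2 and 18, 1 with the compared groups alone and 1 without the 8 libraries (0 to 3). In rPS against PS 1 member was called with no low-count filter, 1 by DESeq2, 1 without the 7 libraries, 1 without the 8 and 2 with the covariates (0 to 1 over left-out libraries). In rPS against RO 1 was called by DESeq2, 1 with the covariates and 1 without the 8 libraries (0 to 1), and in R against RO 2 by limma voom. The counts of rPS against R and of the interaction stayed at 0 under every alternative run, which for the interaction leaves out the fit of the compared groups alone. Over the alternatives for the 8 comparisons that left no single library out, genes called over all ranged from 542 to 6139 in rPS against NT, 10 to 7052 in R against NT, 0 to 8089 in RO against NT and 2 to 9384 in PS against NT. They ranged from 4 to 90 in rPS against PS, 0 to 95 in rPS against R, 2 to 105 in rPS against RO and 0 to 165 in R against RO. Of the values called with all libraries, Chaf1a in rPS against NT alone turned sign, to 0.12 without the 8 libraries. Values that were not called turned more often. In rPS against NT 2 of the 38 turned without the 7 libraries, 5 without the 8 (Chaf1a included) and 3 with the covariates, and in PS against NT 8, 14 and 18 did. The PS median was -0.20, and -0.11, -0.08 and -0.02 in these fits, and that of RO against NT was -0.23, and -0.14, -0.11 and -0.13. Fits with fewer libraries or with 3 more covariates have fewer degrees of freedom, and the cause of the other changes was not tested.

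The replicate number, used as a block, gave 15 calls in rPS against NT (12.6% of all genes) and 1 in R against NT (Uhrf1, with 0.326% of all genes). It gave 1 in rPS against PS (Uhrf1, adjusted p = 0.0475 by edgeR with the replicate block). The labels do not say what a number shares. Over 41 pairs of libraries with the same number the deviations from the group means had a mean correlation of 0.088 (-0.418 to 0.812), with 16 pairs above 0.1. Over 270 pairs with different numbers the mean was -0.013 (-0.747 to 0.662), with 110 above 0.1. These wide and overlapping ranges do not tell whether the numbers pair the samples. Mcm10, Cdc6, Rfc4, Tyms, Cdc45 and Ccne2 had at most 13.3 CPM in NT and rest on few counts, with standard errors of 0.21 to 0.43 on the log2 scale in rPS against NT, and values well above their standard error, such as Rfc4 in R at -0.73 ± 0.20, were not called.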
